A study of Mus musculus with 6 samples.

Results

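The genes described here are 38 genes of mitosis and of the G2/M transition, the step from the gap after DNA replication into cell division. They were taken as a list of gene symbols by their known role and not by a cut on measured values, though the list was drawn up with earlier results of these data known. Of the 38 listed genes, 37 had at least 1 probe set assigned to that gene alone, and 36 had a probe set that reached the level required for testing, a log2 value of 4 or more on 3 or more arrays. The same requirement left 10289 of 18194 genes in the whole series. Ccnb1, which encodes cyclin B1, had no probe set named for it alone and was not analysed here. Foxm1, a transcription factor of G2/M genes, had 4 probe sets that did not reach that level. A gene with several probe sets, groups of short probes designed to read a transcript, was summarised by its brightest. Some of the probe sets used can match more than 1 transcript.

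The study measured total RNA of mouse colon tumours on Affymetrix expression arrays, 1 sample per array. The control group held 3 wild type mice and the other group 3 mice with a transgene for human IL8 (CXCL8), a chemokine that attracts neutrophils; both were of strain CBA/C57BL/6 and labelled male. The promoter of the transgene, the age of the mice, how the tumours arose and whether an array held 1 tumour or several are points not given in the labels used here. Groups were taken from the sample titles, which match the genotype labels, since the source label of all 6 samples carries the word control. The 6 samples are called control arrays 1 to 3 and transgenic arrays 1 to 3, and values are listed in that order, controls first. The design lists 3 mice a group without tying them to arrays, so each p-value reflects the spread among these 6 samples alone, and their number limits the precision.

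The libraries differed in ways other than the mitosis genes. Xist, the RNA of the inactive X chromosome, stood at a log2 value of at least 12.27 on each transgenic array and of at most 2.64 on each control array although all mice were labelled male, so genotype and this split cannot be told apart. The squamous epithelium gene Krtdap reached 12.31 on transgenic array 2 and no more than 2.62 on any other. The colon epithelium genes Epcam and Vil1 were at 13.82 or more and 11.50 or more on every array, and 19 of 20 colon epithelium markers were measured. Others of these markers varied widely over the arrays: Car4 from 2.62 to 10.73, Slc26a3 from 3.02 to 10.80 and Fcgbp from 6.77 to 12.12. Across all tested probe sets the highest correlation lay between the groups, control array 1 with transgenic array 3, at a Pearson r of 0.987.

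In a dividing cell, cyclin A2 and the B cyclins switch on Cdk1, and Polo and Aurora kinases then drive spindle assembly and chromosome condensation. Kinetochores join chromosomes to the spindle, and the spindle checkpoint holds back the anaphase-promoting complex (APC/C), a ubiquitin ligase, until each chromosome is attached. Once it is active, the ligase marks cyclins for breakdown, the chromosomes part and a contractile ring divides the cell. Most of these genes are transcribed mainly in cells about to divide, and in the gut such cells lie in the crypts and in tumours. In a whole tumour, fewer dividing cells and less of each RNA per dividing cell cannot be told apart.

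The mitosis genes were low on 1 transgenic array and close to the controls on the other 2. On transgenic array 1, 35 of the 36 measured genes had their lowest value of the 6 arrays, where 26.9% of the 10289 genes measured did. All 36 lay below the lowest control array there, against 37.2% of all measured genes, and 12 of 36 were at least 2-fold below their control mean, against 6.78%. None of the 36 was 2-fold below its control mean on transgenic arrays 2 and 3, against 8.43% and 0.836% of all genes, and none was 2-fold above it there, against 6.1% and 1.81%. Averaged over the 36 genes, the transgenic arrays stood at -0.92, 0.047 and 0.047 from the control mean of each gene on the log2 scale, and the control arrays at -0.20, -0.095 and 0.29.

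**Figure D1:**
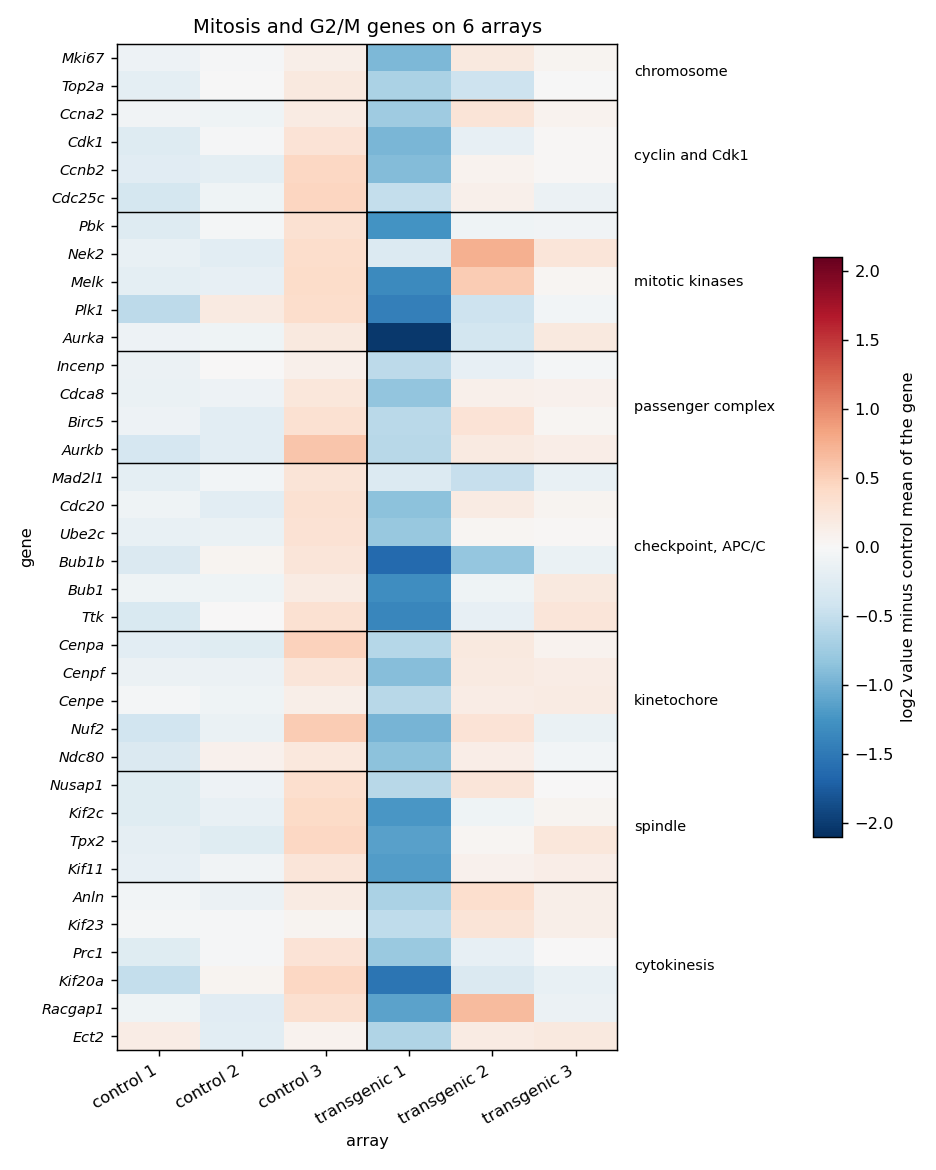
Log2 value minus the mean of the 3 control arrays (colour) for the 36 measured mitosis and G2/M genes (rows, grouped by role) on the 6 arrays (columns). The column of transgenic array 1 is blue in every row, from -0.28 to -2.02, and control array 3 is on the red side in every row.

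None of the 36 genes passed the test between transgenic and control tumours. With limma over 19310 probe sets, 0 of 36 had an adjusted p under 0.05, where 0.0486% of all measured genes did, and the smallest adjusted p among them was 0.806. At an unadjusted p under 0.05 the count was also 0 of 36, against 3.63% of all genes lower and 2.2% higher. No gene of the 36 had groups that did not overlap, where 6.75% of all genes lay lower and 4.77% higher without overlap. The differences, transgenic minus control, ran from -0.86 to 0.24 with a median of -0.25, against a median of -0.025 over all measured genes.

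Leaving out transgenic array 1 changed the sign of most of these differences. With all arrays, 35 of 36 genes had a lower mean in transgenic tumours, where 53.8% of all genes did. Without that array 12 of 36 did, against 52.5% of all genes, and the median difference was 0.084. With array quality weights, which gave that array the lowest weight, 20 of 36 were lower and the median was -0.011. Without control array 3 the median was -0.080. These counts read 1 probe set per gene. Without transgenic array 1, another kept probe set of Ccna2, Cdc20, Cdca8, Cenpa, Cenpe, Kif11 and Tpx2 stayed below 0, unlike the brightest. For Bub1b, Prc1 and Top2a another kept probe set lay above 0 and the brightest below it. The median SD among transgenic tumours was 0.54 over the 36 genes against 0.28 in controls; over all genes these were 0.30 and 0.19.

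**Figure D2:**
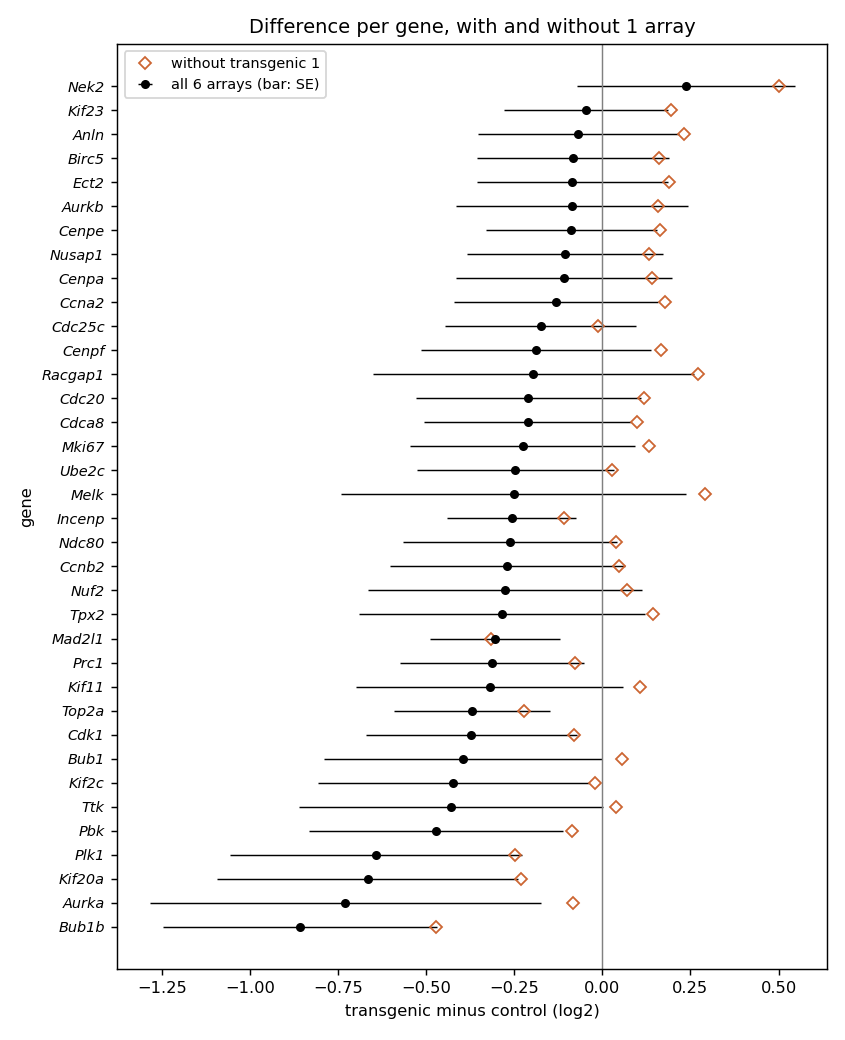
Difference between transgenic and control means on the log2 scale for the 36 genes (rows, ordered by the difference), with all 6 arrays (black points, bars show the SE of the limma fit) and without transgenic array 1 (open diamonds). With all arrays 35 of 36 points lie below 0, and without transgenic array 1 the diamonds of 24 of 36 genes lie above 0.

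Among the controls, array 3 carried the highest values. It was the highest of the 3 control arrays for 35 of 36 genes, against 44.2% of all genes, and the highest of all 6 for 25, against 23.1%. The exception among the controls was Ect2, an exchange factor that starts the cleavage furrow, at 6.76, 6.38 and 6.67. Transgenic array 2 was the highest of the 6 for 7 genes, against 25.5%, and transgenic array 3 for 4, against 7.25%. On transgenic array 2, 5 of 36 genes lay below all controls (37.1% of all genes) and 9 above them (33.6%). On transgenic array 3, 0 lay below (21.8%) and 5 above (19.7%). The control arrays, averaged over the genes, spanned -0.20 to 0.29, and transgenic arrays 2 and 3 lay inside that range.

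The 36 genes varied nearly as a block. Pearson's r over the 6 arrays between a gene and the mean of the other 35 had a median of 0.95, and 28 of 36 genes were above 0.9. Ube2c had the highest r, 0.995, followed by Cdca8 at 0.995 and Kif2c at 0.992. The lowest were Mad2l1 at 0.428 and Nek2 at 0.654. A first principal component held 87.4% of the variance among arrays. These figures describe 6 arrays that share the low values of 1 library, and carry no test.

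G2/M genes are known to share promoter elements, and these were looked up because the genes varied together across the arrays. The CCAAT box, bound by NF-Y, was searched as CCAAT and, for the other strand, ATTGG. The cell cycle genes homology region (CHR), bound by the LIN54 subunit of the DREAM and MuvB complexes, was searched as TTTGAA, as its reverse complement TTCAAA and as TTCGAA, which reads the same on both strands. Promoters were 300-base windows from RefSeq on build GRCm38.p6, 250 bases before to 50 after the transcription start, and 30 of the 38 genes had one. Ccnb1, which was not measured here, is among these 30. Ect2 and Prc1 each had a pair of start sites, which makes 32 promoters.

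A CCAAT box was present in 24 of 32 promoters (75.0%), against 37.4% of all 32851 promoters in the table and 37.3% of the 10710 promoters of genes measured on these arrays. A CHR was also present in 24 of 32 (75.0%), against 19.2% of all promoters and 14.0% of those of measured genes. Both elements were found in 21 of 32 promoters (65.6%), against 7.52% and 5.55%. Birc5, Mad2l1, Melk, Nuf2 and Nusap1 had neither set of letters in this window. Their r with the mean of the other genes over the 6 arrays was 0.92, 0.43, 0.95, 0.93 and 0.93. Of genes with both elements, Ube2c had an r of 0.995 and Top2a of 0.80. Whether the elements go with the shared variation was not tested. The 66 promoters of other mitosis genes held a CHR in 62.1%, a CCAAT box in 65.2% and both in 43.9%. Replication genes, which peak earlier in the cycle, held a CHR in 24.4% of 45 promoters and a CCAAT box in 57.8%. These are matches of letters, with no test and no measure of binding.

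The promoters of 6 genes with both elements before the start are shown because they belong to genes whose values are given here and place the elements at different distances. Each line gives the 250 bases before the transcription start, 5′ to 3′ on the gene's strand, with CCAAT boxes and CHR matches in capitals. The Cdk1 window is chr10:69352913-69353162 (minus strand), Cdc20 is chr4:118437344-118437593 (minus strand), Ube2c is chr2:164769679-164769928 (plus strand), Ccnb2 is chr9:70421555-70421804 (minus strand), Top2a is chr11:99024190-99024439 (minus strand) and Mki67 is chr7:135716380-135716629 (minus strand), all on GRCm38.p6.
Cdk1: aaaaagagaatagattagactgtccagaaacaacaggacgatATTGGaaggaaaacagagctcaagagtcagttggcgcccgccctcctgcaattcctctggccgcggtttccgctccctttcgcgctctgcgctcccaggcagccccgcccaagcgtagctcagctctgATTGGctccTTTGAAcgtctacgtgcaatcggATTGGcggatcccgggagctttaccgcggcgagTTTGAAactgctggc
Cdc20: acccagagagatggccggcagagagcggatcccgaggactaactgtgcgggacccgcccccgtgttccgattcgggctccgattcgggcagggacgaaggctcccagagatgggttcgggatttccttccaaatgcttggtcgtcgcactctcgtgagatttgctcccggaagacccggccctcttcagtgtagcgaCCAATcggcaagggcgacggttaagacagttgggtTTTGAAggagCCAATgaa
Ube2c: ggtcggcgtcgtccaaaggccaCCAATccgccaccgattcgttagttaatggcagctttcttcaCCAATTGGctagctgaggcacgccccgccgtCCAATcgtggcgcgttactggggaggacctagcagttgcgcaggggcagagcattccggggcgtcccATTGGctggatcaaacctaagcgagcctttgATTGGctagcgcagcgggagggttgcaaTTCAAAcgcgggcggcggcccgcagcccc
Ccnb2: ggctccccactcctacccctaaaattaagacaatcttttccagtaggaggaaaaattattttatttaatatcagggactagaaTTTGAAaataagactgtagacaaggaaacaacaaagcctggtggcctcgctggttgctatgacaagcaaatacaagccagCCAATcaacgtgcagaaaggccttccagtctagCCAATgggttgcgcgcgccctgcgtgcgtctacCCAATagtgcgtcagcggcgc
Top2a: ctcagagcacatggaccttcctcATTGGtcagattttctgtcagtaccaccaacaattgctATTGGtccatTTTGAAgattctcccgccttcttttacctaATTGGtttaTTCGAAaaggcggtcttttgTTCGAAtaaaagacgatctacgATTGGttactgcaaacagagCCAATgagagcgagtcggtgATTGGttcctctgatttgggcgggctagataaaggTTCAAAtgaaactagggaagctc
Mki67: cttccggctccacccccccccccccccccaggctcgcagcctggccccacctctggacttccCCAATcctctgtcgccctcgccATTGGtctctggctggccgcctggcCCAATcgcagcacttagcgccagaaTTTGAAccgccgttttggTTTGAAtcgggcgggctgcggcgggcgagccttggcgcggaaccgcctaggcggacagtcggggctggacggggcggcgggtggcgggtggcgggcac

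Cdc20 carried CCAAT boxes at -53 and -8 and a CHR at -18, counting the base before the start as -1 and giving the first base of each match. Cdk1 had CHR matches at -71 and -15 and CCAAT boxes at -208, -80 and -48. In Ccnb2 the CCAAT boxes stood at -87, -54 and -21, with CHR matches at -167 and, after the start and so outside the printed bases, at 5. Top2a held 6 CCAAT and 4 CHR matches. Ube2c also held 6 CCAAT matches, a CCAAT and an ATTGG of which overlap, and 1 CHR at -29. Over the 32 promoters, 37 of 55 CCAAT matches lay in the 100 bases before the start, and 23 of 34 CHR matches lay within 50 bases on either side of it.

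**Figure D3:**
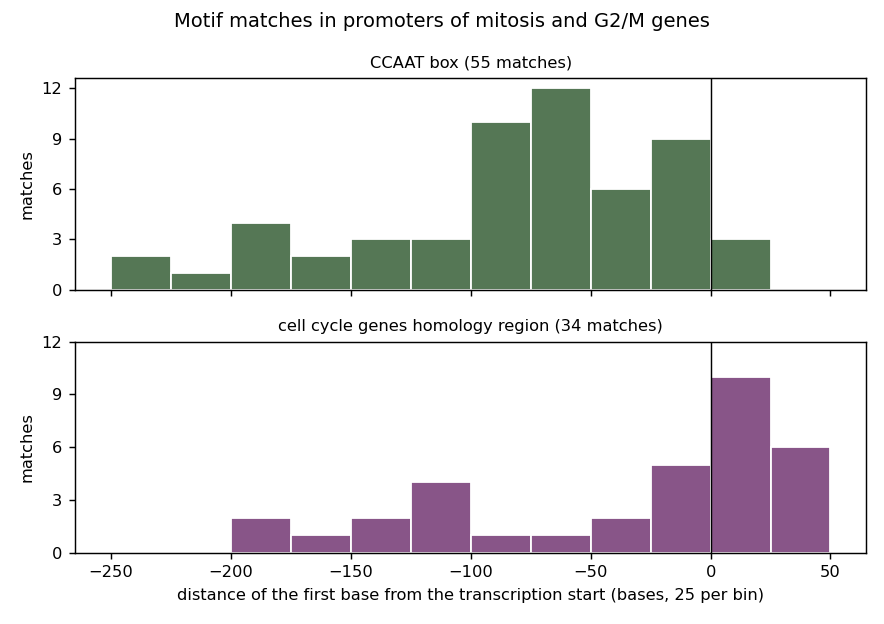
Number of CCAAT matches (upper panel) and CHR matches (lower panel) in the 32 promoters against the distance of the first base from the transcription start, in bins of 25 bases from 250 bases before to 50 after it. CCAAT matches have a median position of -67 and CHR matches of -10; Ect2 and Prc1 enter with both of their start sites.

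Mki67 and Top2a are the usual markers of dividing cells on chromosomes. Mki67, which encodes the Ki-67 protein that coats mitotic chromosomes, was at 11.01, 11.09 and 11.23 on the control arrays and 10.17, 11.32 and 11.17 on the transgenic arrays. It was lowest on transgenic array 1 and highest on transgenic array 2, so the groups overlapped, and the difference was -0.23 ± 0.32 (SE; limma adjusted p 0.886). Top2a, the topoisomerase that untangles sister chromatids, was at 10.37, 10.58 and 10.79 in controls and 9.91, 10.14 and 10.57 in transgenic tumours. Here transgenic arrays 1 and 2 both lay below every control array while array 3 lay within them, and the difference of -0.37 ± 0.22 kept its sign without array 1, at -0.22 (limma adjusted p 0.806). A second Top2a probe set that passed the filter differed by 0.0025.

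**Figure D4:**
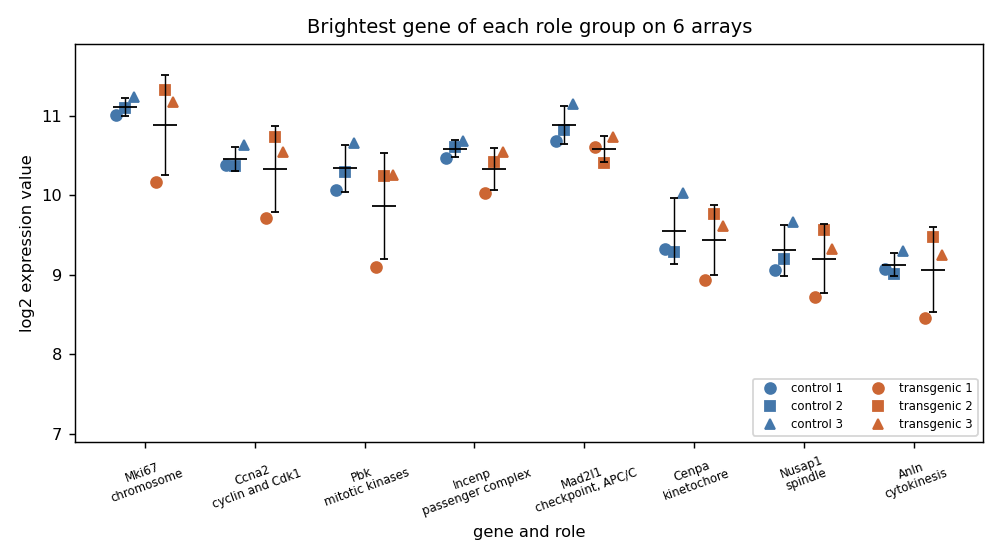
Log2 expression values on the 6 arrays for the brightest measured gene of each role group, with controls in blue and transgenic samples in orange; lines and bars show the mean and SD of each group. Transgenic array 1 is the lowest point for 7 of these 8 genes, and Mad2l1, lowest on transgenic array 2, is the exception.

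The cyclins and Cdk1, the engine of mitotic entry, overlapped between groups. Ccna2, the cyclin of S phase and early mitosis, was at 10.38, 10.36 and 10.63 in controls and 9.71, 10.73 and 10.54 in transgenic tumours. Its control arrays lay within 0.3 of each other while transgenic array 1 stood -0.75 from their mean, and the group difference was -0.13 ± 0.29. The 2 Ccna2 probe sets differed by -0.13 and -0.61. Cdk1, the kinase that cyclins A and B activate, was at 9.82, 10.07 and 10.39 in controls and 9.14, 9.92 and 10.11 in transgenic tumours. Transgenic array 1 alone lay below all controls, and the difference was -0.37 with all arrays and -0.079 without it. Ccnb2, a B-type cyclin, was at 9.30, 9.32 and 9.97 in controls and 8.63, 9.61 and 9.56 in transgenic tumours, with transgenic arrays 2 and 3 between control arrays 2 and 3. Cdc25c, the phosphatase that activates Cdk1, was a dim gene and differed by -0.18. The limma adjusted p of these 4 genes was 0.815 to 0.928. The brightest Foxm1 probe set, at 3.55, 4.16 and 4.11 in controls and 3.30, 3.79 and 3.77 in transgenic tumours, reached 4 on 2 arrays and was not tested.

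Among the mitotic kinases were the gene with the largest gap on transgenic array 1, Aurka, and the 1 gene with a higher transgenic mean, Nek2. Aurka, the Aurora kinase of the spindle poles, was at 7.56, 7.58 and 7.88 in controls and 5.65, 7.30 and 7.89 in transgenic tumours, so that array 1 was 4.07-fold below the control mean. Array 2 was also below every control and array 3 was level with the highest. Its difference was -0.73 ± 0.55 with all arrays and -0.082 without array 1. Plk1, the Polo kinase, was at 7.14, 7.88 and 8.05 against 6.26, 7.26 and 7.63, and differed by -0.64, or -0.25 without that array. Control array 1 was lower than transgenic array 2 for Plk1, so the groups overlapped there too.

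Pbk, a kinase active in mitosis, was at 10.07, 10.29 and 10.66 in controls and 9.09, 10.25 and 10.26 in transgenic tumours, and stood 2.37-fold below the control mean on transgenic array 1. Melk, a kinase enriched in dividing progenitor cells, was at 7.50, 7.53 and 8.09 against 6.37, 8.24 and 7.75; transgenic array 2 was the highest of the 6 and array 1 the lowest. Nek2, a kinase that splits the centrosomes, was at 7.52, 7.46 and 8.05 in controls and 7.39, 8.43 and 7.93 in transgenic tumours. It was the 1 gene of the 36 with a higher transgenic mean, 0.24 ± 0.31, and a second probe set gave 0.24. Without transgenic array 2, on which Nek2 had its highest value, the Nek2 difference was -0.019. None of the 5 kinase genes passed (limma adjusted p 0.806 to 0.917).

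The chromosomal passenger complex joins Aurora B to its partners Incenp, survivin and borealin and corrects faulty attachments. Incenp, its scaffold, was at 10.47, 10.60 and 10.69 in controls and 10.03, 10.41 and 10.54 in transgenic tumours; arrays 1 and 2 were below every control and array 3 was within them. The difference was -0.26 ± 0.18, and -0.11 without array 1. Cdca8, which encodes borealin, was at 10.28, 10.31 and 10.65 against 9.58, 10.52 and 10.51, and Birc5, which encodes survivin, at 10.15, 10.04 and 10.57 against 9.68, 10.53 and 10.29. For both, transgenic arrays 2 and 3 lay within the control range and the differences were -0.21 and -0.083. Aurkb itself differed by -0.086, and by 0.072 at its dimmer probe set. The limma adjusted p of the 4 genes was 0.807 to 0.959.

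The spindle checkpoint and its target held the gene with the largest difference, Bub1b. It encodes BubR1, which inhibits Cdc20, and was at 8.32, 8.67 and 8.88 in controls and 7.00, 7.81 and 8.49 in transgenic tumours. Transgenic arrays 1 and 2 were below every control array, and array 3 was between control arrays 1 and 2. The difference of -0.86 ± 0.39 had a 95% confidence interval of -1.80 to 0.084 and did not pass (limma adjusted p 0.806); it was -0.47 without array 1 and -0.67 and -0.011 at the other probe sets. Bub1 and Ttk, the kinases that recruit the checkpoint proteins, differed by -0.40 and -0.43, and by 0.056 and 0.038 without array 1.

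Mad2l1, which encodes the checkpoint protein Mad2, did not follow the common pattern. It was at 10.68, 10.82 and 11.15 in controls and 10.60, 10.40 and 10.73 in transgenic tumours, and transgenic array 2 rather than array 1 was the lowest. Its difference was -0.30 ± 0.18 with all arrays and -0.32 without array 1 (limma adjusted p 0.806). Cdc20, the activator of the APC/C, was at 10.69, 10.58 and 11.10 in controls and 9.92, 10.97 and 10.85 in transgenic tumours. Ube2c, the ubiquitin carrier that works with this ligase, was at 10.58, 10.60 and 11.04 against 9.95, 10.78 and 10.76. For Cdc20 and Ube2c only array 1 left the control range, with differences of -0.21 and -0.25. A second kept Cdc20 probe set differed by -0.46, and by -0.13 without array 1. Its value on transgenic array 2 was just below the lowest control.

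Kinetochore genes lay at a mean of -0.79 from the control mean on transgenic array 1 and of 0.19 on array 2. Cenpa, the histone that marks the centromere, was at 9.32, 9.29 and 10.02 in controls and 8.94, 9.76 and 9.61 in transgenic tumours. Cenpf, a large kinetochore and matrix protein, was at 8.44, 8.44 and 8.81 against 7.67, 8.75 and 8.72, and the kinetochore motor gene Cenpe at 7.37, 7.33 and 7.53 against 6.82, 7.56 and 7.58. At these probe sets, transgenic array 1 was below all controls for each of the 3 genes. Arrays 2 and 3 were above at least 2 controls. The differences of the 3 genes were -0.11, -0.19 and -0.088 with all arrays and 0.14, 0.17 and 0.16 without array 1. A second kept probe set of Cenpa and of Cenpe had transgenic array 2, too, below every control. These probe sets differed by -0.27 and -0.42 with all arrays and by -0.15 and -0.16 without array 1. Ndc80 and Nuf2, partners in the complex that grips microtubule ends, differed by -0.26 and -0.28. None of the 5 passed (limma adjusted p 0.855 to 0.944).

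Spindle motors and microtubule proteins averaged -1.03, 0.072 and 0.11 from their control means on the 3 transgenic arrays. Kif2c, a kinesin that takes microtubules apart at centromeres, was at 7.93, 8.03 and 8.59 in controls and 6.95, 8.09 and 8.24 in transgenic tumours, 2.35-fold below the control mean on array 1. Tpx2, which activates Aurora A on the spindle, was at 7.11, 7.06 and 7.75 against 6.17, 7.35 and 7.55, and Nusap1, a microtubule bundling protein, at 9.06, 9.20 and 9.67 against 8.72, 9.56 and 9.32. Kif11, the motor that pushes the spindle poles apart, differed by -0.32. At the probe sets used, transgenic arrays 2 and 3 lay within the control range in these 4 genes. Without array 1 the differences ran from -0.020 to 0.14 (limma adjusted p with all arrays 0.828 to 0.940). Dimmer kept probe sets of Kif2c, Tpx2 and Kif11 differed by -0.21, -0.13 and -0.078 without array 1. Another Kif11 probe set differed by 0.12. The dimmer Kif2c probe set had transgenic array 2 below every control.

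Genes of the central spindle and cytokinesis lay at a mean of -0.88 on transgenic array 1. Kif20a, a kinesin that carries the passenger complex to the midzone, was at 7.46, 8.01 and 8.38 in controls and 6.42, 7.65 and 7.79 in transgenic tumours, 2.90-fold below the control mean on array 1. Kif23, the motor of the centralspindlin complex, was at 8.50, 8.53 and 8.61 against 8.02, 8.81 and 8.67. Its control arrays were the tightest of any of the 36 genes (SD 0.057), and arrays 1 to 3 of the transgenic group lay below, above and above all of them. Racgap1, the partner of Kif23, was at 6.91, 6.77 and 7.35 against 5.88, 7.68 and 6.89, with the highest value on transgenic array 2.

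Anln, which encodes the ring protein anillin, was at 9.07, 9.01 and 9.30 in controls and 8.46, 9.48 and 9.24 in transgenic tumours, and Prc1, which bundles midzone microtubules, at 7.87, 8.11 and 8.41 against 7.35, 7.97 and 8.15. The differences were -0.068 for Anln, -0.046 for Kif23, -0.20 for Racgap1, -0.31 for Prc1, -0.085 for Ect2 and -0.67 for Kif20a. Without array 1, Kif20a and Prc1 were at -0.23 and -0.078, and the other 4 genes lay above 0. A second kept Prc1 probe set was at -0.058 with all arrays and at 0.28 without array 1. None of the 6 passed (limma adjusted p 0.806 to 0.970).

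Every kept probe set, rather than 1 per gene, was also counted. Of 57 probe sets kept for the 36 genes, 52 were lowest on transgenic array 1, 51 had a lower transgenic mean and 0 had a limma adjusted p under 0.05, where 0.057% of all kept probe sets did. Of the 17 genes with several kept probe sets, Anln, Aurkb, Kif11 and Top2a had probe sets with opposite signs.

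The rest of the cell cycle was read from 4 further lists. Of 70 other mitosis genes, such as condensins, kinesins and centromere proteins, 60 were measured, 0 passed in either direction with limma and 1 had an unadjusted p under 0.05 (higher, against 2.2% of all genes). Of the 60, 55 had a lower and 5 a higher transgenic mean, and 51 were lowest on transgenic array 1. The median difference was -0.18, and 0.064 without array 1, when 26 of 60 were lower. The gene with an unadjusted p under 0.05 was Bora, an activator of Plk1, at 7.39, 7.49 and 7.23 in controls and 8.17, 7.71 and 7.73 in transgenic tumours. Cenpm, a centromere protein gene, followed in order of p and differed by -0.68. Bora and Wee1, a kinase that holds Cdk1 inactive, were the 2 of 60 genes (3.33%) with every transgenic array above every control array, against the 4.77% of all genes given above. Bora differed by 0.50 ± 0.18 and Wee1, at 7.25, 7.55 and 7.60 against 7.69, 7.80 and 7.86, by 0.32 ± 0.16, without passing the test (limma adjusted p 0.806 in each case).

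Genes of DNA replication shared the low array. Of 43 listed genes 40 were measured, 0 passed with limma and 1, Chaf1b, had an unadjusted p under 0.05 (lower, against 3.63% of all genes). Of the 40, 35 had a lower and 5 a higher transgenic mean, and 34 were lowest on transgenic array 1. On the 3 transgenic arrays the replication genes averaged -0.75, 0.030 and -0.043 from their control means. The median difference was -0.26, and -0.0040 without array 1. Chaf1b, a subunit of the chromatin assembly factor, was at 4.48, 5.17 and 5.46 against 4.11, 4.43 and 4.35 and did not overlap; it was the 1 of 40 genes (2.5%) lower without overlap, against 6.75% of all genes. Pole, the leading strand polymerase, differed by -0.81 and, like Chaf1b (-0.74), kept its sign without array 1, at -0.70 and -0.65 (limma adjusted p 0.806 for both).

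Of the G1 genes 3 of 10, and of the brakes on the cycle 4 of 19, were lowest on transgenic array 1. The brakes list includes inhibitors of cyclin-dependent kinases, Rb family genes and Gadd45a of the G2 checkpoint. It also holds the MuvB genes Lin9, Lin37 and Lin54, so its counts do not describe inhibitors alone. Of 10 G1 genes, with D-type cyclins and Myc among them, all were measured, 0 passed with limma (0 also at an unadjusted p under 0.05), 6 were higher and 4 lower, and the mean deviation on transgenic array 1 was -0.026. Cdk4, the kinase of the D-type cyclins, was at 10.60, 10.90 and 11.07 in controls and 10.29, 9.71 and 10.62 in transgenic tumours, a difference of -0.65 with its lowest value on array 2, and Ccnd2 differed by 0.44. Of 22 brakes 19 were measured, 0 passed (0 also unadjusted), 13 were higher and 6 lower, with a mean of 0.17 for transgenic array 1. Cdkn1b, which encodes the inhibitor p27, differed by 0.45 and Btg1 by 0.33. Btg1, Cdkn2b and Lin9, 3 of 19 (15.8%), were higher without overlap, against 4.77% of all genes; Cdkn2b, which encodes the inhibitor p15, was at 9.62, 9.70 and 9.10 in controls and 10.57, 9.78 and 9.70 in transgenic tumours, highest on array 1. None of these G1 and brake genes passed (limma adjusted p 0.806 or more).

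**Figure D5:**
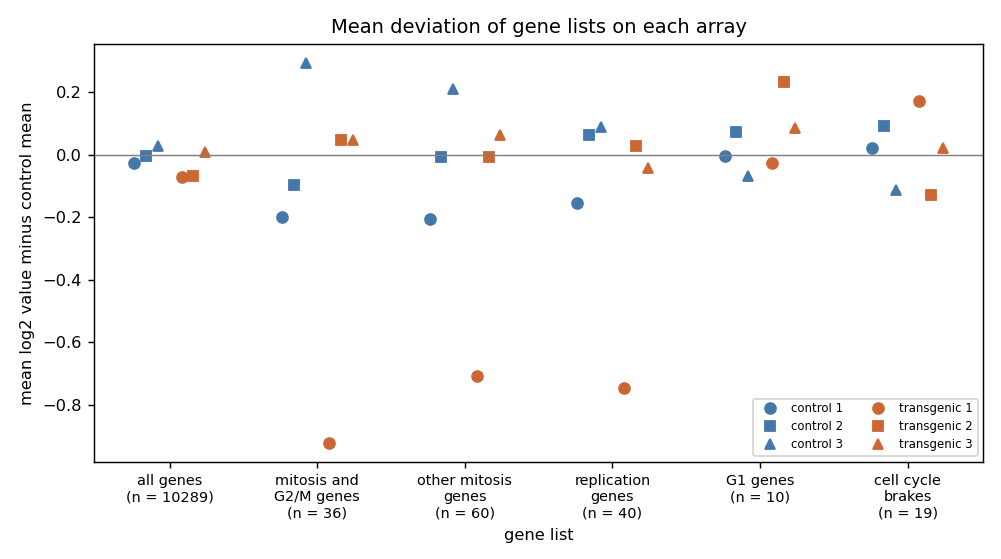
Mean log2 value minus the control mean for 5 cell cycle lists and for all measured genes (x axis, number of genes in brackets) on each array (blue controls, orange transgenic; the symbol gives the array number). Transgenic array 1 lies at -0.92, -0.71 and -0.75 for the mitosis, other mitosis and replication lists, below every other array, and at -0.026 and 0.17 for the G1 and brake lists.

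Other features of transgenic array 1 are set beside its low mitosis values. Colon epithelium markers had a mean log2 level of 10.45 there, against 10.51 to 11.77 in controls and 11.80 and 11.98 on the other transgenic arrays. Fibroblast markers (12 of 13 measured) were at 7.95, against 9.36 to 9.42 in controls and 9.32 and 8.96. The fibroblast list was lowest on this array by its mean and its median, and 9 of 12 of its genes had their lowest value there. For colon epithelium only the mean was, with Fcgbp at -3.43, Slc26a3 at -3.31, Car4 at -2.30 and Car1 at -1.93 from their control means. The controls of these genes spread widely. Car4 was at 8.61, 3.31 and 2.85 in controls and 2.62 on transgenic array 1. Car1 was at 12.10, 12.29 and 9.31 against 9.30, and Slc26a3 at 9.48, 5.32 and 4.18 against 3.02. Fcgbp was at 11.36, 10.10 and 9.15 against 6.77. The median deviation of that list was -0.0012 on transgenic array 1 and -0.24 on control array 3, where 10 of 19 markers were lowest, against 6 of 19 on transgenic array 1.

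Smooth muscle markers (8 of 11) were at 6.67, against 7.47 to 8.22 in controls and 10.51 and 9.45. Macrophage markers (12 of 13) were at 6.97, against 7.63 to 8.26 in controls and 6.20 and 7.46, lowest on array 2. Intestinal stem cell markers (8 of 10) were at 10.29, within the control range of 10.24 to 10.48, and at 9.16 on array 2. Squamous markers (8 of 20) were at 5.89, also within the controls at 5.36 to 6.30, and at 10.83 on array 2. The gap between 3′ and 5′ control probe sets of Gapdh, a reading of RNA length, was 0.71 on array 1 and 0.87 to 0.96 on the others. The part of these features in the mitosis values was not tested.

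Among lymphoid and other lists, neutrophil markers (5 of 13) were at 9.92, 8.87 and 9.40 on the 3 transgenic arrays. In controls they were at 9.19 to 9.55. The 5 genes went both ways: S100a8, S100a9 and Ltf differed by 0.78, 1.02 and 2.09, Mmp9 and Lcn2 by -1.95 and -1.77. None of the 5 passed with limma. Endothelial markers (7 of 10) were at 5.60 on array 1 against 5.43 to 5.96 in controls. B and plasma cell markers (6 of 14) were at 9.94, 9.71 and 10.08 on the 3 transgenic arrays against 8.26 to 8.80 in controls. Of that list, the immunoglobulin gene Ighm rose in transgenic tumours, from 3.36, 4.25 and 4.35 to 11.64, 9.93 and 9.73 (limma adjusted p 0.0316). Ighm stood 7.65, 5.94 and 5.74 above its control mean on the transgenic arrays. The higher mean of the B and plasma cell list there came largely from this gene. The median deviation of the list was 0.16, 0.081 and 0.75 on the transgenic arrays and 0.29, 0.14 and -0.29 on the control arrays. Of the T and NK cell markers, 2 of 13 were measured, at 3.53 against 3.92 to 5.44. Of the B-cell genes that did not reach the level for testing, Ms4a1 and Cd79b had highest values of 4.57 and 4.20, and Cd79a, Cd22, Pax5 and Blk stayed under 4 on every array. Of the T and NK cell genes, Cd8a and Cd3d had highest values of 4.12 and 4.03, and Cd3e, Cd3g, Cd2, Cd4, Nkg7 and Klrk1 stayed under 4. The part of these cells in the mitosis values was not tested.

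Outside the cell cycle lists, the genes whose values were most like the mean of the 36 genes over the 6 arrays were Aoc1 (Pearson's r 0.997), Stox2 (0.995), Tmem29 (0.994), St8sia4 (0.993) and Bop1 (0.993). Aoc1, which encodes a diamine oxidase, was at 10.43, 10.55 and 11.07 in controls and 9.18, 10.78 and 10.71 in transgenic tumours, lowest on transgenic array 1 as the mitosis genes were. Bop1, a ribosome biogenesis factor, was at 7.29, 7.43 and 7.72 against 6.75, 7.44 and 7.55. Of 10124 candidate genes, 150 had an r above 0.95, and over 6 arrays such values describe these libraries only.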

How the data were processed

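Total RNA of 6 mouse colon tumour samples was read on Affymetrix arrays. The authors deposited log2 values from GCRMA, per the submitters' processing notes, whose version and settings are not given in sources used here. GCRMA models background by probe sequence, so low values are compressed. Levels of different probe sets served to pick the brightest and to average marker lists over the same probe sets on each array. A gap in level between probe sets was not read as a gap in RNA amount. Of 45101 probe sets, 34958 had 1 gene symbol, 932 several and 9211 none in the platform annotation. Probe sets with a log2 value of at least 4 on at least 3 of 6 arrays were kept (19310), and each gene was read from its brightest kept probe set.

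The test between groups was limma's moderated fit (version 3.58.1, R 4.3.3, 3 against 3 arrays, Benjamini-Hochberg adjustment over all kept probe sets, threshold 0.05); the code was tested on simulated data. The alternatives were 2 other filters, 2 normalizations, array quality weights, values under 4 set to 4, the mean of probe sets, a prior variance that was trended and robust, a block for the replicate number, a threshold of 0.1 and leaving out each array. Same-numbered arrays deviated with correlations of -0.27, -0.28 and -0.051, and the main fit did not pair them. Arrays with different numbers were not compared, so whether the numbers mark pairs was not settled. The genes and the lists were chosen with earlier results of these data known. Values on each array were given by rule for the 3 brightest genes of each role group, and pathway lists by the 2 genes of smallest p. Ect2, Aurka, Plk1, Bub1b, Kif20a, Racgap1, Wee1, Cdkn2b, Lin9, Ighm and the Foxm1 probe set were added after their values were seen. Other genes given outside these rules include Xist, Krtdap, Epcam, Vil1, Car1, Car4, Slc26a3 and Fcgbp. Of the measured colon epithelium markers, Car1, Car4, Slc26a3 and Fcgbp stood furthest below their control means on transgenic array 1. Promoter motifs were searched in RefSeq windows with no test.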

Additional observations from a re-analysis of the deposited data

How the results depend on the processing

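No member passed limma's adjusted threshold of 0.05 under any alternative, nor at 0.1, and the smallest adjusted p of a member was 0.334, without transgenic array 3. Signs changed with array quality weights, on leaving out an array and with the mean of each gene's probe sets; the other filters, the normalizations, the prior variance and the floor at 4 changed no sign among the named members. With the mean of probe sets, 34 of 36 members were lower, against 35. The cause of these changes was not tested beyond the arrays left out. With array quality weights, 20 of 36 members and 29 of 60 other mitosis genes were lower, and these members went from below to above 0: Anln 0.099, Aurkb 0.17, Birc5 0.090, Ccna2 0.047, Ccnb2 0.0098, Cdc20 0.044, Cdca8 0.024, Cenpa 0.12, Cenpe 0.099, Cenpf 0.074, Ect2 0.15, Kif23 0.075, Melk 0.036, Nusap1 0.045 and Tpx2 0.13; Nek2 stayed above 0. Leaving out each array in turn gave 12 to 36 members lower, 26 to 56 other mitosis genes, 22 to 37 replication genes and 2 to 4 G1 genes, and a member median of -0.40 to 0.084. The lowest 3 of these counts came without transgenic array 1 (12, 26 and 22) and the G1 count of 2 without control array 2. Over the arrays left out, the members whose sign changed ranged as follows: Anln -0.28 to 0.23, Aurkb -0.26 to 0.20, Birc5 -0.27 to 0.16, Bub1 -0.69 to 0.056, Ccna2 -0.33 to 0.18, Ccnb2 -0.44 to 0.048, Cdc20 -0.40 to 0.12, Cdc25c -0.36 to 0.054, Cdca8 -0.37 to 0.099, Cenpa -0.27 to 0.14, Cenpe -0.22 to 0.16, Cenpf -0.37 to 0.17, Ect2 -0.23 to 0.19, Kif11 -0.55 to 0.11, Kif23 -0.20 to 0.19, Melk -0.64 to 0.29, Mki67 -0.44 to 0.13, Ndc80 -0.46 to 0.038, Nek2 -0.019 to 0.50, Nuf2 -0.55 to 0.070, Nusap1 -0.29 to 0.13, Racgap1 -0.63 to 0.27, Tpx2 -0.55 to 0.14, Ttk -0.77 to 0.038 and Ube2c -0.39 to 0.028. With the replicate number as a block, 0 members passed and the member median was -0.25; the block changed no call. The precision is limited by 3 arrays a group, with a median SE of 0.31 over the members, and by signal near background for Foxm1.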

Other observations

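Cdkn1c, which encodes the inhibitor p57, was at 9.07, 9.88 and 10.22 on the control arrays and 10.31, 4.21 and 8.33 on the transgenic arrays. Its low value was on transgenic array 2, not on the array where the mitosis genes were low. Mycn, which encodes a relative of Myc, was at 4.83, 4.72 and 4.76 on the control arrays and 5.35, 6.98 and 4.54 on the transgenic arrays, with its highest value on transgenic array 2. Both were singled out after their values were seen, and neither passed (limma adjusted p 0.806 and 0.806).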
